A study of Mus musculus with 24 samples.

Results

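Whole blood of mice lacking Parp1 was compared with whole blood of wild-type mice when neither had been irradiated. The comparison took the 5 arrays labelled Parp1-KO at 0 Gy and the 5 labelled WT at 0 Gy, 10 of the 24 arrays of the series. All mice were males of strain 129S/J, and each array held 1 mouse, per the series design. Knockout mice carried the genotype Parp1-/-, and which exons the null allele removes is not in the labels. Both groups were mock irradiated and killed 24 h later, so handling and sham exposure were shared. Blood was drawn by cardiac puncture into a lysing RNA stabiliser, so all cell types of blood contributed, and globin RNA was reduced before labelling. The arrays at 6 Gy, 5 of each genotype, served as a second comparison of the same genotypes in other mice.

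PARP1 is a nuclear enzyme that binds breaks in DNA and builds chains of ADP-ribose on itself and on nearby proteins, using NAD as its substrate. The chains recruit factors of base excision and single-strand break repair and are taken off again by hydrolases such as PARG. PARP1 also acts at promoters as a cofactor of transcription factors, among them NF-kappaB.

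Levels are given as the log2 processed signal minus the 75th percentile of the same array, so a difference of 1 between groups is a doubling. A probe counted as detected where the scanner software marked it well above background. Each gene was read from its brightest probe, and 11591 genes whose probe was detected on at least 4 arrays of either group were tested with limma. Of these, 7985 were read from a probe detected on all 10 arrays. A gene is called where the Benjamini-Hochberg adjusted p lay under 0.05.

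The knockout arrays had fewer detected probes than the wild-type arrays. The share of probes detected was 39.1% ± 2.36 (SD, n = 5) in the knockout and 48.7% ± 6.49 (SD, n = 5) in the wild type, with no overlap (exact two-sided permutation test, p = 0.00794, the smallest that 5 against 5 arrays allow, adjusted p = 0.0159 over 4 measures). Probes detected on none of the 24 arrays lay at a median of -3.85 ± 0.303 in the knockout and -5.01 ± 0.698 in the wild type (n = 5 each, exact permutation p = 0.00794, adjusted p = 0.0159), so dim probes read higher in the knockout. The 75th percentile of the signal was 123 ± 53.7 against 142 ± 83.6 scanner units (exact permutation p = 0.667, adjusted p = 0.667, n = 5 each) and the mean globin level 11.8 ± 0.779 against 11.2 ± 0.807 (exact permutation p = 0.278, adjusted p = 0.37). Knockout arrays were scanned on days 1 and 2 and the wild-type arrays on day 4, and no slide held both genotypes at 0 Gy, so scan day, slide and genotype cannot be told apart within the 10 arrays. The mean level of 25 hepatocyte genes, not typical of blood cells, was 6.64, 4.52 and 6.00 on wild-type replicates 1, 3 and 5, 6.57 on knockout replicate 1, 1.14 on knockout replicate 3, and from -2.88 to -1.19 on the other 5 arrays. The library labelled knockout 6 Gy replicate 1 was nearly equal to wild-type 8.8 Gy replicate 2, with a standard deviation of 0.199 between their levels over 7985 genes, against 0.279 for the next closest of 276 pairs. Its Parp1 level, -1.67, lay within the range of the wild type at that dose. Values at 6 Gy are given both with it and without it.

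The probes behind the results below are printed because each call rests on 1 oligonucleotide of 60 bases. The sequences come from the array files and run 5′ to 3′, and coordinates are those of build mm9 given by the files. The Parp1 probe starts at base 3021 of its transcript and its ends lie at chr1:182530341-182530639, a span longer than the probe. Gpr37l1 has the largest rise among calls detected on every array, Rgs7 is the call nearest to Parp1 on chromosome 1, and Olfr738 was detected in 1 genotype only.
Parp1: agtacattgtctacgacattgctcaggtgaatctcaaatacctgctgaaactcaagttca
Gpr37l1: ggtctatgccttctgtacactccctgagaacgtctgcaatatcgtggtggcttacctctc
Rgs7: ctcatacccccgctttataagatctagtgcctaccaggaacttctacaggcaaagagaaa
Olfr738: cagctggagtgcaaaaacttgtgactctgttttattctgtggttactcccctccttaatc

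Parp1 was the 1 gene called lower in the knockout, 0.00863% of the genes tested. Its probe was detected on all 5 wild-type arrays and on no knockout array. Wild-type replicates 1 to 5 read -0.35, -0.49, -0.58, -0.94 and -0.71, and knockout replicates read -2.29, -2.81, -3.82, -2.90 and -3.16. The groups were far apart, with the highest knockout array below the lowest wild-type array. The measured difference was -2.38 (SE 0.281, limma adjusted p = 0.0139). The Parp1 probe entered the test through the wild-type arrays alone, so no weight is put on that adjusted p. As a bound against background Parp1 was at least 2.59-fold lower. This bound sets the mean wild-type level against the lowest signal counted as detected on each knockout array, or the probe's own reading where higher. At 6 Gy the difference was -1.91 (adjusted p = 0.13), and -2.42 without knockout replicate 1 (adjusted p = 0.0977), neither of which was called. Parp1 was called in 15 of the 26 other settings that tested it, and its difference was below 0 in all 26.

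**Figure D1:**
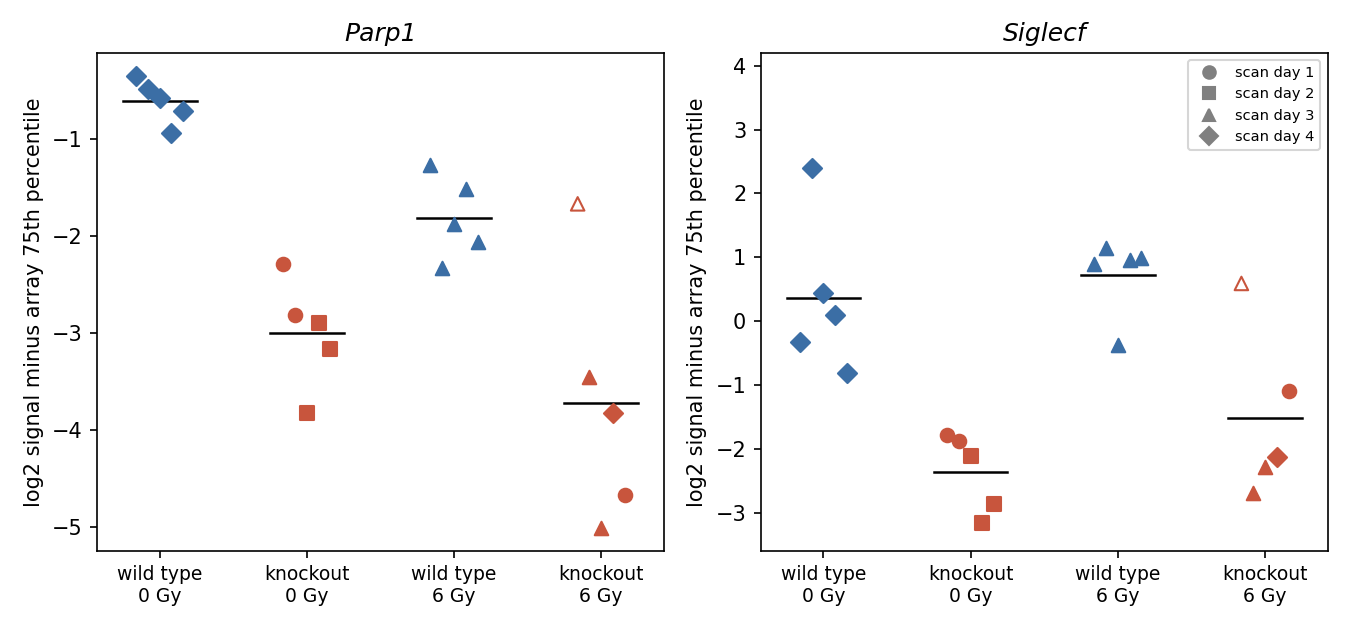
Levels of Parp1 and Siglecf (y axis, log2 signal minus the array's 75th percentile) on each array of wild type and knockout at 0 Gy and 6 Gy, with the marker shape giving the scan day, bars the mean of 5 arrays and the open symbol knockout 6 Gy replicate 1. At 0 Gy every knockout array lies below every wild-type array for both genes, and at 6 Gy the open symbol lies among the wild-type arrays.

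The other members of the PARP family, enzymes that share the ADP-ribosyltransferase fold, gave no call, where 0.233% of all genes tested were called. Of 16 family genes on the array 12 were tested. Parp2, the closest relative of Parp1 and its partner in break repair, was detected on 2 wild-type arrays and no knockout array and was not tested, nor were Tnks, Parp11 and Parp12. The DNA-damage-linked Parp3 differed by 0.27 (SE 0.286) and the vault particle member Parp4 by -0.50 (SE 0.349). Tnks2, a tankyrase, differed by -0.09 (SE 0.274). Among the members induced by interferon, Parp9 differed by -0.76 (SE 0.362), Parp10 by -0.15 (SE 0.264), Parp14 by -0.17 (SE 0.315) and Zc3hav1, an antiviral RNA-binding protein, by 0.33 (SE 0.31). Knockout replicate 3 read -2.07 for Parp9, while the other knockout arrays read from -0.39 to -0.09. Parp6, Parp8, Parp16 and Tiparp, which add single ADP-ribose units or are thought to, differed by -0.11 (SE 0.223), -0.27 (SE 0.271), 0.23 (SE 0.405) and 0.00 (SE 0.238). The family median was -0.13, beside -0.08 over all genes tested. On probes detected on all 10 arrays the medians were -0.10 and 0.01.

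Among 9 tested genes that take ADP-ribose off proteins or break it down, of 11 listed, 1 was called higher. Over all genes tested 0.224% were. Of the 9, 4 lay above 0, and their median was -0.22, beside -0.08 over all genes tested. Adprhl1, a relative of the ADP-ribose hydrolases known for its expression in heart, read -1.72, -0.73, -1.21, -1.13 and -1.45 on the wild-type arrays and 0.24, 0.15, 1.1, 0.30 and 0.13 on the knockout arrays. The groups did not overlap, and the difference was 1.63 (SE 0.267, limma adjusted p = 0.035). At 6 Gy it was -0.15, and 0.08 without knockout replicate 1. Parg, the main enzyme that degrades the chains, differed by -0.50 (SE 0.264), and Adprhl2, which removes ADP-ribose from serine, by -0.44 (SE 0.241). Nudt5, which hydrolyses free ADP-ribose, differed by 0.68 (SE 0.317). None of these 3 passed the test.

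In all, 26 genes were called higher in the knockout, 0.224% of the genes tested, and 1459 genes (12.6%) against 638 (5.50%) lay higher or lower at an unadjusted p under 0.05. Of the 26 higher calls, 11 were on probes detected on all 10 arrays, 0.138% of such genes, and no gene was called lower among them. Gpr37l1, an orphan receptor of glial cells, read -0.61, 1.04, 0.78, 0.49 and 0.10 on the wild-type arrays and 2.34, 2.73, 3.32, 2.04 and 2.07 on the knockout arrays. All knockout arrays lay above all wild-type arrays, with a difference of 2.14 (SE 0.351, limma adjusted p = 0.035). Krt80, a keratin of epithelia, was the brightest call, at 1.05 ± 0.556 in the wild type and 3.08 ± 0.564 in the knockout (SD, n = 5 each), a difference of 2.03 (limma adjusted p = 0.035). Rgs7, a regulator of G protein signalling in neurons, read -0.95, 0.05, 0.62, -0.17 and -0.97 in the wild type and 1.35, 1.91, 2.21, 1.41 and 1.34 in the knockout. Its groups did not overlap either, and it rose by 1.93 (SE 0.335, adjusted p = 0.0424).

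The remaining calls on fully detected probes rose by similar amounts. Fat2, an atypical cadherin of cerebellar granule cells, rose by 2.03. Mdh1b, a malate dehydrogenase homologue, rose by 1.99, and Ces2c, a carboxylesterase, by 1.86. Ldb3, a protein of the Z disc of striated muscle, rose by 1.51 with a small spread (SD 0.349 in the wild type and 0.218 in the knockout). V1ra8, a vomeronasal receptor, rose by 2.04 and Olfr122, an olfactory receptor, by 1.82, and the sequences of both families are alike enough that a probe can take up signal of a relative. Their adjusted p-values lay between 0.035 and 0.0493.

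Olfr738, another olfactory receptor, was the 1 higher call that was detected on all 5 knockout arrays and on no wild-type array. It read -4.54, -2.16, -3.07, -2.55 and -3.21 in the wild type and -0.66, -0.68, -0.54, -1.14 and -1.18 in the knockout. The wild-type readings are background, so the size is a bound, at least 4.27-fold higher in the knockout. Its probe entered the test through the knockout arrays alone, so no weight is put on its adjusted p. Of the other 15 higher calls 1, the clone 2310047N11Rik, was detected on all 10 arrays and rose by 1.62. The remaining 14 were detected on 4 or 5 knockout arrays and on 0 to 4 wild-type arrays, so the filter admitted several of them through the knockout alone. They include A4galt, the enzyme that makes the globotriaosyl glycolipid, at 2.83, Dock4, an activator of small GTPases, at 2.33, and Slc8a1, the sodium-calcium exchanger of the heart, at 2.01, named after their values were seen.

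**Figure D2:**
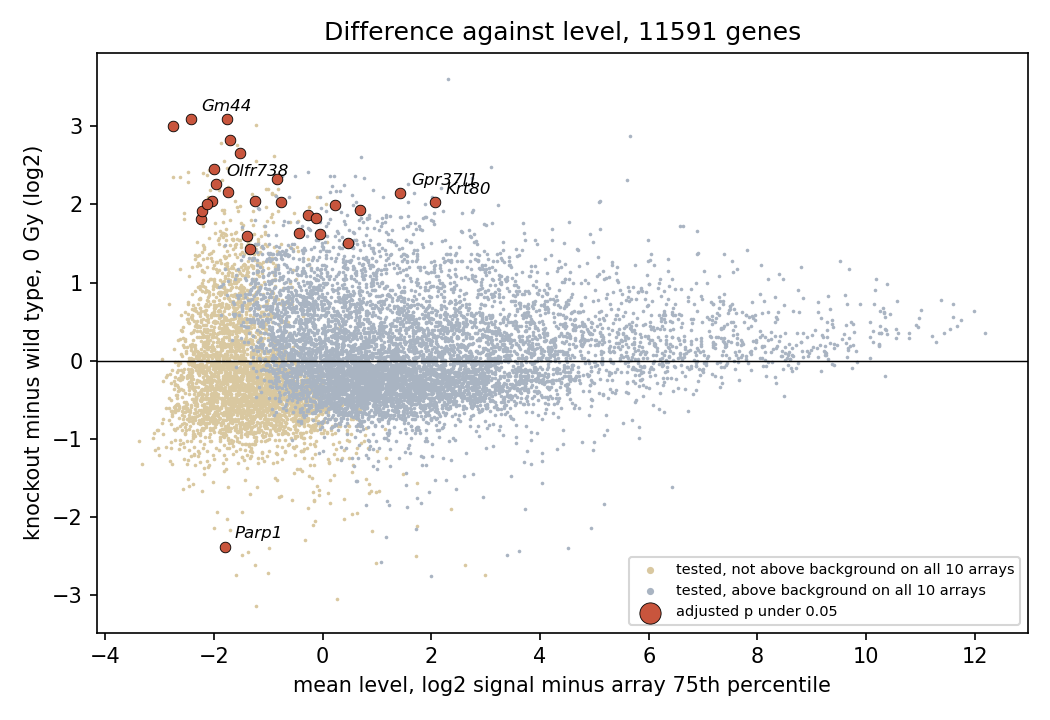
Knockout minus wild type at 0 Gy (y axis, log2) against the mean level of the 10 arrays (x axis, log2 signal minus 75th percentile), 1 point per gene, with called genes in red and genes not detected on every array in tan. The 26 higher calls lie at low to middle levels, and Parp1 is the 1 call below 0.

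Further probes met the detection filter for 1 of the higher calls only. Of the 26 genes 7 had another probe on the array, 10 probes in all, of which 4 were detected on no array and 1 met the detection filter. That probe for the noncoding gene 4931440P22Rik differed by -0.30, whereas the called probe of that gene differed by 2.66. Of the 10 further probes 5 lay below 0 and 5 above 0. Short of the filter, a Ces2c probe lay at -1.32 (detected on 3 wild-type and 2 knockout arrays). A Ccdc30 probe lay at -0.76 (3 and 0) and a Dock4 probe at -0.68 (3 and 1). The 5 above 0 were the 4 detected on no array and a Pabpc5 probe at 1.63, detected on 1 knockout array. Median GC content was 44.2% for the 26 called probes and 43.3% for the probes of all genes tested.

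The 26 higher calls were then followed on arrays that had no part in choosing them. At 6 Gy 3 of the 26 lay above 0, or 4 without knockout replicate 1, and none was called in either direction with limma. Of all genes tested 6 (0.0518%) were called at 6 Gy, and 0 without that replicate, so the lack of calls is near that share. The median over all genes tested was -0.01 at 6 Gy, or 0.03 without knockout replicate 1. Rgs7 differed there by -1.43 (-1.63 without it), V1ra8 by -1.24 (-1.29) and Gpr37l1 by -0.64 (-0.72), none past the threshold. An interaction test of the 2 genotype differences called 205 genes (1.77% of those tested), 16 of the 26 among them, or 367 (3.17%) and 16 without knockout replicate 1. The 26 were chosen for their 0 Gy values, which enter this test, so nothing is read from that count. Their mean level at 6 Gy was -0.87, -1.21, -1.88, -2.05 and 0.36 on knockout replicates 1 to 5 and -0.61, 0.08, -0.38, -0.82 and -1.09 on the wild-type replicates. The highest of these knockout arrays, replicate 5, was on the slide and scan day of knockout 0 Gy replicates 1 and 2, whose mean levels were -0.17 and 0.20. The lowest, replicate 4, was on the slide of wild-type 0 Gy replicate 1 and the scan day of the wild-type 0 Gy arrays, whose mean levels ran from -2.73 to -1.71. Wild-type 6 Gy replicate 2, of scan day 3, read 0.08, within the knockout 0 Gy range, so the match to scan day does not cover every array. The level of probes detected on none of the 24 arrays was -4.26 on knockout 6 Gy replicate 5, -5.42 on replicate 4 and -3.79 on wild-type 6 Gy replicate 2. The part of scan day, slide and background in the 26 calls was not tested separately from genotype.

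**Figure D3:**
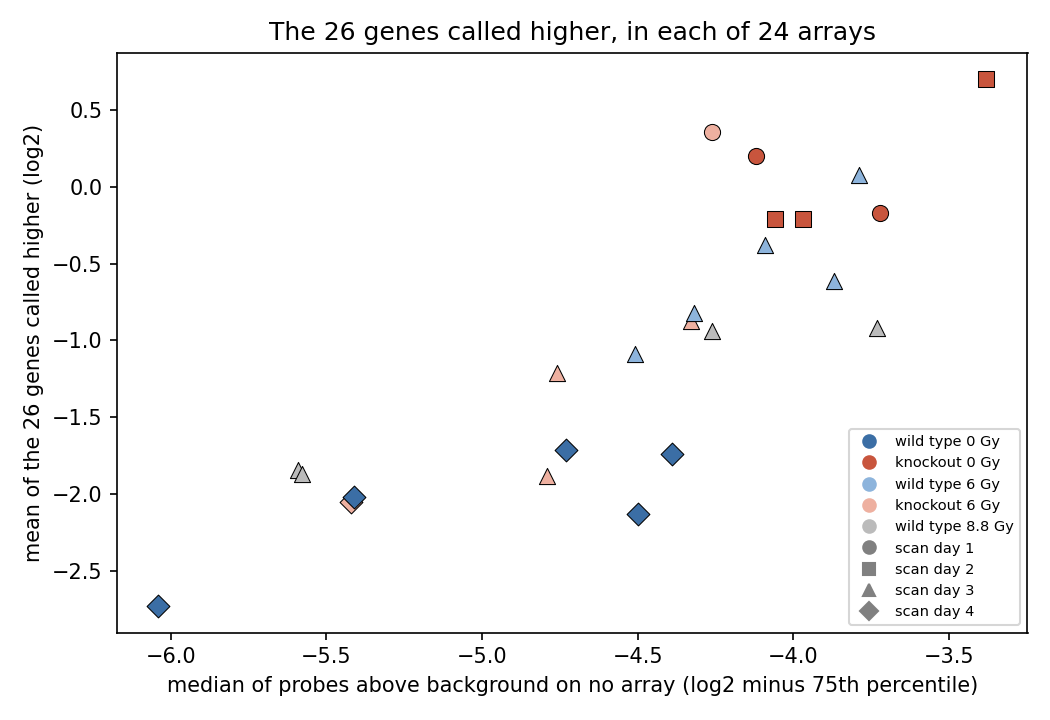
Mean level of the 26 genes called higher at 0 Gy (y axis, log2) against the median level of probes detected on none of the 24 arrays (x axis, log2), for all 24 arrays, coloured by group and shaped by scan day. The split of the 0 Gy groups was used to choose the genes, while the 6 Gy and 8.8 Gy arrays were not, and among the latter the knockout 6 Gy array of scan day 1 and wild-type 6 Gy replicate 2 of scan day 3 have means within the range of the knockout 0 Gy arrays.

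The number of calls depended on single arrays. Without knockout replicate 2, 4 or 5, or without wild-type replicate 1, no gene was called (1463 to 2221 genes at an unadjusted p under 0.05 in these limma fits). Without wild-type replicate 3 there was 1 call, without knockout replicate 3 or wild-type replicate 2 there were 5, and without wild-type replicate 5 there were 6. Without knockout replicate 1 there were 351 calls, 328 of them higher. With scan day or slide as a block in a model of all 24 arrays, 1 gene was called and none of the 27 remained. The 0 Gy groups are joined there only through single knockout 6 Gy arrays, replicates 4 and 5. Parp1, the deleted gene, was itself not called, at -1.08 with the scan day block (limma adjusted p = 0.999) and -1.35 with the slide block. The lost calls are therefore not read as a result about genotype. The groups did not overlap for any of the 27, so leaving out 1 array could not turn a sign. Under the scan day block 8 of 27 kept their sign, and under the slide block 20 of 27.

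Siglecf, a sialic acid-binding receptor of eosinophils, lay lower in the knockout at both doses. It was chosen after its values were seen. Wild-type arrays read -0.33, 2.40, 0.44, 0.09 and -0.81, and knockout arrays -1.78, -1.88, -2.11, -3.17 and -2.87. The groups did not overlap, and the difference was -2.72 (SE 0.531, limma adjusted p = 0.0524), outside the threshold. The probe was detected on 5 wild-type arrays and on 1 knockout array, and the other 4 knockout readings are background, so the size is uncertain. At 6 Gy the wild-type arrays read 0.89, 1.15, -0.37, 0.95 and 0.99. The knockout arrays there read 0.59 for replicate 1 and -2.70, -2.28, -2.13 and -1.09 for replicates 2 to 5, so the groups were again apart once replicate 1 was left out. That difference was -2.24 (adjusted p = 0.113), or -2.77 without it (adjusted p = 0.0977). Siglecf passed the threshold in 9 of 26 other settings for 0 Gy, among them the model of all 24 arrays (adjusted p = 0.0267), and lay below 0 in all 26.

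The other eosinophil markers did not follow Siglecf as a list. Of 15 tested of 18 listed, 5 lay above 0, none was called, and the median was -0.17, beside -0.08 over all genes tested. Ccr3, the eotaxin receptor, differed by -0.74 (SE 0.747), Il5ra, the receptor for interleukin 5, by -0.15 (SE 0.566) and Prg2, the major basic protein, by 0.21 (SE 0.821). Hrh4, a histamine receptor, differed by 1.08 (SE 0.351, adjusted p = 0.16). The mean level of the list ran from 0.74 to 2.76 over the wild-type arrays and from 0.34 to 2.29 over the knockout arrays. Wild-type replicate 2 had the highest level for the list and for Siglecf.

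Genes whose groups did not overlap numbered 445 higher (3.84%) and 260 lower (2.24%) at 0 Gy, and 464 higher (4.003%) and 313 lower (2.70%) at 6 Gy without knockout replicate 1. Of the lower ones 18 were common to both doses, 6.92% of the 0 Gy genes and 5.75% of the 6 Gy genes, and 9 of the higher ones, 2.02% and 1.94%. With all arrays 377 were higher at 6 Gy (3.25%) and 168 lower (1.45%), and 10 lower and 9 higher were common to both doses. In the opposite sense, without that replicate, 10 were lower at 0 Gy and higher at 6 Gy, 3.85% of the 0 Gy genes and 2.16% of the 6 Gy genes. Another 8 were higher and then lower, 1.8% and 2.56%. Among all genes tested 4.003% lay higher and 2.70% lower at 6 Gy without that replicate. Of the 0 Gy genes, the shared higher ones, at 2.02%, lay under that share and the shared lower ones, at 6.92%, above it. The lower ones besides Parp1 and Siglecf included the transcription factor Myc, with -0.86 at 0 Gy and -0.73 at 6 Gy (-0.87 without replicate 1). Prpf19, a ubiquitin ligase of the spliceosome, and Sirt4, a mitochondrial sirtuin, were detected on all 5 wild-type and no knockout array at 0 Gy. Prpf19 was at least 1.48-fold lower, and Sirt4 has no bound above 1. The higher ones included Mtor, the growth-control kinase, with 1.1 and 1.32 (1.42), Trak2, an adaptor for mitochondrial transport, with 1.72 and 1.05 (0.99), and Rmnd5a, a subunit of the CTLH ubiquitin ligase, with 0.87 and 1.12 (1.05). None but Parp1 passed the test at 0 Gy and none at 6 Gy, and these genes were chosen after their values were seen.

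Wdr26, another CTLH ubiquitin ligase subunit, lies 0.584 Mb from Parp1 in build mm9. Wild-type arrays read 2.97, 3.54, 3.55, 3.44 and 3.77, and knockout arrays 4.52, 4.29, 6.14, 5.19 and 4.83. The groups did not overlap, and the difference was 1.54 (SE 0.335, limma adjusted p = 0.0625), with 1.81 at 6 Gy (adjusted p = 0.106) and 1.82 without knockout replicate 1. Of the 49 genes other than Parp1 tested within 5 Mb of it, none was called, 5 lay higher and 4 lower at an unadjusted p under 0.05, and the median was -0.26. Over all genes tested 12.6% lay higher and 5.50% lower at that p, 0.233% were called, and the median was -0.08. Within 20 Mb 1 of 181 was called, Rgs7. Wdr26 was chosen after its values were seen.

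Blood is a mixture, and in bulk RNA fewer cells of a type and less RNA per cell cannot be told apart. Erythroid genes lay above the wild type in the knockout as a list without any of them being called. Of 40 tested of 43 listed, 38 lay above 0, and 14 passed an unadjusted p of 0.05, all higher (12.6% of all genes did so). The median was 0.73, beside -0.08 over all genes. Ahsp, the chaperone of alpha globin, differed by 1.66 (SE 0.665, adjusted p = 0.228), and Slc4a1, the anion exchanger of the red cell membrane, by 1.28 (SE 0.551, adjusted p = 0.252). The groups did not overlap for 2 of the 40, beside 3.84% of all genes tested on the higher side, so the count is near that share. These 2 were Xpo7, an exportin that rises during red cell maturation, at 1.35, and Car1, carbonic anhydrase of red cells, at 0.55.

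The mean erythroid level was 3.09, 4.36, 3.82, 4.65 and 4.33 on the wild-type arrays and 4.32, 4.11, 5.97, 4.9 and 4.57 on the knockout arrays. The groups overlapped, with wild-type replicate 1 lowest and knockout replicate 3 highest. Without knockout replicate 3 the median was 0.44 and 3 of the 40 passed the unadjusted threshold. Without wild-type replicate 1 the values were 0.51 and 2, and without wild-type replicate 3 or knockout replicate 4 or 5 the number fell to 6, 5 and 8. Against the wild type, the knockout arrays of scan day 1 gave a median of 0.19 and those of scan day 2 gave 1.13. At 6 Gy the erythroid median was 0.79, or 0.73 without knockout replicate 1, and with all arrays 2 members were among the 6 genes called there, 0.0518% of those tested. These were Ank1, the ankyrin of the red cell membrane skeleton, at 2.92 (limma adjusted p = 0.0469) and Epb41, which ties that skeleton together, at 1.59 (limma adjusted p = 0.047), against 1.22 and 0.98 at 0 Gy, and neither was called without knockout replicate 1.

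Neutrophil and platelet genes had medians above 0. Under a scan day block in the 24-array model these were -0.60 and -0.24. That model joins the 0 Gy groups only through single knockout 6 Gy arrays, so nothing is read from the turned signs. The neutrophil median was 0.53 over 26 of 31 genes, with no call and 21 members above 0, and 0.15 at 6 Gy, or 0.24 without knockout replicate 1. Elane and Ctsg, serine proteases of the primary granules, differed by 0.76 (adjusted p = 0.238) and 0.90 (adjusted p = 0.225), whereas Mgst1, a glutathione transferase, differed by -1.64 (SE 1.31), Cebpe, a granulocyte transcription factor, by -0.60 and Mmp9, a granule metalloprotease, by -0.18. Knockout replicate 3 again stood highest, at a mean neutrophil level of 3.39, while the other knockout arrays lay from 2.52 to 2.65. The platelet median was 0.23 over 32 of 33 genes at 0 Gy and 0.90 at 6 Gy, or 0.94 without knockout replicate 1. At 0 Gy it was 0.03 without wild-type replicate 1, 0.12 without knockout replicate 3, 0.16 without wild-type replicate 5 and 0.51 without wild-type replicate 4. Itga2b, the platelet integrin, differed by 0.97 at 0 Gy (adjusted p = 0.243) and by 2.15 at 6 Gy (2.24 without knockout replicate 1).

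**Figure D4:**
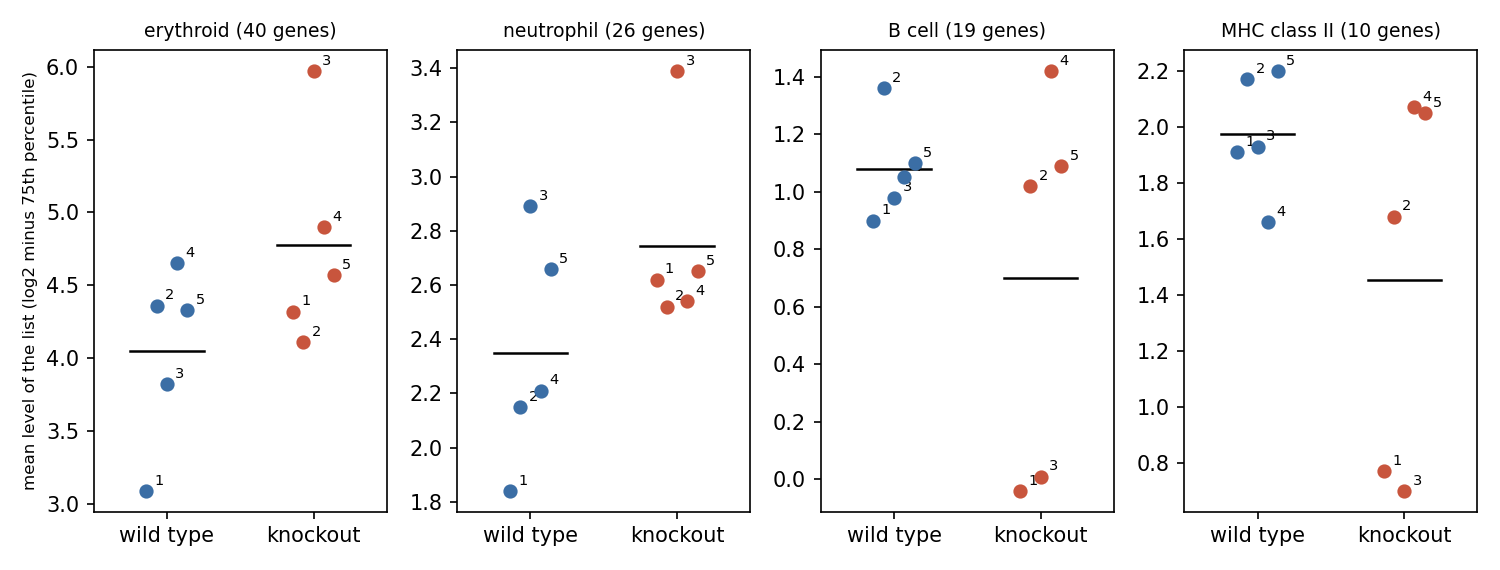
Mean level of erythroid, neutrophil, B cell and MHC class II genes (y axis, log2 signal minus 75th percentile, 1 scale per panel) on each 0 Gy array, numbered by replicate, with bars for the mean of 5 arrays. Knockout replicate 3 has the highest erythroid and neutrophil levels, and knockout replicates 1 and 3 have the lowest B cell and MHC class II levels.

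Lymphoid and antigen-presentation lists had medians below 0, again without a call. B cell genes had a median of -0.56 over 19 of 25 genes. Cd79a and Cd79b, the signalling chains of the B cell receptor, differed by -0.92 (SE 0.323, adjusted p = 0.181) and -0.84 (SE 0.367, adjusted p = 0.258), whereas Cr2, the complement receptor, differed by 0.96 and Cd22, an inhibitory receptor, by 0.54. MHC class II genes had a median of -0.55 over 10 of 11, with Cd74, the invariant chain, at -1.15 (SE 0.375, adjusted p = 0.159) and H2-Eb1, a class II beta chain, at -0.89 (SE 0.333, adjusted p = 0.207). Mean B cell levels were -0.04, 1.02, 0.01, 1.42 and 1.09 on the knockout arrays and 0.90 to 1.36 on the wild-type arrays. Low values were thus confined to knockout replicates 1 and 3 among the 10 arrays, and without replicate 1 the B cell median was -0.32. These 2 arrays also had the lowest shares of detected probes, 36.7% and 36.5%, and the highest hepatocyte levels of the knockout arrays, 6.57 and 1.14. Wild-type replicates 1, 3 and 5 had hepatocyte levels of 6.64, 4.52 and 6.00 without low B cell levels. The part of these measures in the low values was not tested. At 6 Gy the medians were -0.58 for B cell genes and -0.57 for MHC class II genes, or -0.79 and -0.58 without knockout replicate 1. With scan day as a block in the 24-array model they were -0.29 and 1.36 at 0 Gy, the second with its sign turned. Nothing is read from this either, as single 6 Gy arrays join the groups there.

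T cell genes lay nearer to all genes, with a median of -0.17 over 30 genes and 1, Cd27, at an unadjusted p under 0.05, higher by 0.74. NK cell genes had a median of -0.35 over 16 of 22 genes, and the granzymes Gzma and Gzmb differed by -0.61 and -0.55, while the pore protein Prf1 differed by 0.68. The basophil and mast cell median was -0.58 over 13 of 18 genes, 3 of them above 0. Il3ra, the interleukin 3 receptor chain, differed by -0.73, whereas Tpsb2, a tryptase, differed by 0.68 and Hdc, which makes histamine, by 0.35. Mcpt4 and Cma1, mast cell chymases, were detected on all 5 wild-type and no knockout array, so their probes entered the test through the wild type alone. As a bound on the group means against background, they were at least 2.12-fold and 1.11-fold lower. The groups overlapped for both, and neither was called. The wild-type SD of Mcpt4 was 1.41, so its bound rests on a wide spread. Cma1 also stands in the NK cell list, although it is a mast cell gene. Monocyte genes had a median of -0.22 over 28 of 30 genes and dendritic cell genes -0.20 over 14 of 18. Plasma cell genes had a median of -0.56 over 7 of 14.

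**Figure D5:**
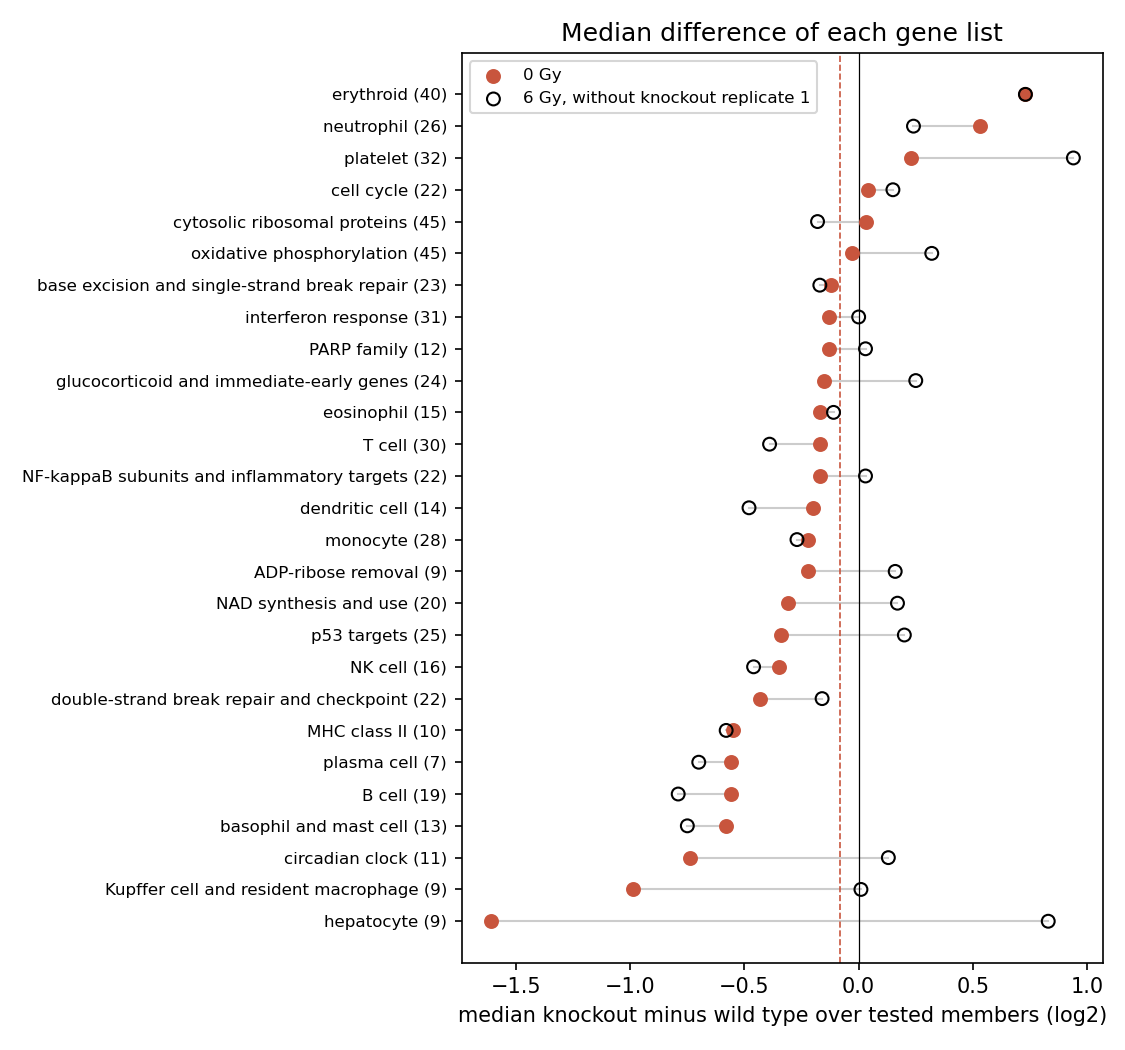
Median knockout minus wild type over the tested members of each list (x axis, log2) at 0 Gy (red) and at 6 Gy without knockout replicate 1 (open), for lists with at least 7 tested genes, whose number is in parentheses, with the dashed line at the median of all genes at 0 Gy. Erythroid genes have the highest median at 0 Gy and hepatocyte genes the lowest.

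Pathways tied to PARP1 gave no call other than Parp1 and Adprhl1. Of all genes tested 0.233% were called, so lists this short would hold few or none at that share. Base excision and single-strand break repair genes had a median of -0.12 over 23 of 30 genes, and the 1 member past an unadjusted p of 0.05 was Tdg, a DNA glycosylase, at 0.71. Double-strand break repair and checkpoint genes had a median of -0.43 over 22 of 37, or -0.11 over the 7 detected on all 10 arrays. Rif1 and Mre11a, which act in the choice and processing of broken ends, differed by -1.14 and -0.93 and were detected on 0 and 1 knockout arrays. Bard1, the partner of Brca1, differed by 0.98 (SE 0.30, adjusted p = 0.141), and by -1.16 at 6 Gy (-1.35 without knockout replicate 1).

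NAD synthesis and use had a median of -0.31 over 20 of 28 genes, and -0.07 over the 14 detected throughout. The mitochondrial sirtuin Sirt5 differed by -1.23 (adjusted p = 0.157). Nadk2, the mitochondrial NAD kinase, differed by 0.85 and Cd38, which consumes NAD, by 0.82. Targets of p53 had a median of -0.34 over 25 of 36 genes with none past an unadjusted p of 0.05 in either direction. NF-kappaB genes had a median of -0.17 over 22 of 34. The subunit Relb differed by 0.95 (SE 0.229, adjusted p = 0.0848) with groups that did not overlap, and by -0.92 at 6 Gy (-1.04 without knockout replicate 1), while the inhibitor Nfkbib differed by -0.42 and -0.48 (-0.51).

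Interferon response genes had a median of -0.13 over 31 of 43, with Oas3, an RNA sensor enzyme, at 1.46 (adjusted p = 0.16) and Rsad2, an antiviral enzyme, at 1.22 (adjusted p = 0.181). Of the 31, 12 lay above 0, and Gbp3, a guanylate-binding protein, lay at -0.70, Irgm1, an immunity-related GTPase, at -0.57 and Stat2, a transducer of interferon signals, at -0.53. Glucocorticoid and immediate-early genes had a median of -0.15 over 24 of 29 genes. Circadian clock genes had a median of -0.74 over 11 of 21, but -0.04 over the 6 detected throughout, and Arntl, the clock activator, differed by -1.08 (adjusted p = 0.201). Cell cycle, ribosomal protein and oxidative phosphorylation genes had medians of 0.04, 0.03 and -0.03. The cell cycle median was 0.21 over the 16 detected throughout. Of 22 cell cycle genes 5 lay higher and 1 lower at an unadjusted p under 0.05, and none was called. Mki67 differed by 1.2, and by 2.02 at 6 Gy (limma adjusted p = 0.0389). Without knockout 6 Gy replicate 1 the latter was 1.95 (adjusted p = 0.0977). Ccna2 and Ccnb2 differed by 1.01 and 0.86, and by 0.94 and 0.85 at 6 Gy. Tyms and Tpx2 differed by 1.15 and 1.8, but by -1.86 and -1.16 at 6 Gy.

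Genes of other tissues varied with single arrays. Hepatocyte genes had a median of -1.61 over the 9 tested of 25 listed and none was called. It ran from -2.61 to -0.80 without 1 array. At 6 Gy the median was 1.44, or 0.83 without knockout replicate 1. With the hepatocyte level as a covariate the erythroid median was 0.58, the B cell median -0.74 and the count of calls 50. Resident macrophage genes had a median of -0.99 over 9 of 17 genes, and -0.02 over the 3 detected throughout. Heart muscle, skeletal muscle and lung genes had 4, 4 and 5 tested members with medians of -0.25, 0.56 and -0.13.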

How the data were processed

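The members and gene lists were chosen with earlier results of these data known. The deposited files of each array give linear spot intensities; per the file headers, Agilent Feature Extraction 11.5.1.1 subtracted background and detrended within each array, with no normalization between arrays, and the submitters' processing notes name version 11.5.1. The authors' deposited table holds log2 values; set against the scanner files, each column equalled the log2 processed signal plus a constant (slopes 0.998 to 1.000), so scale and direction are settled while the origin of the constant is unstated. Its column medians were 7.94, 7.68, 7.73, 7.66 and 7.80 for wild-type replicates 1 to 5 and 8.09, 7.66, 8.01, 7.69 and 7.63 for the knockout.

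From the intensities, log2 values of 43020 non-control spots were scaled to the 75th percentile of the array. Spots marked as outliers were left out and spots of a probe averaged. Of 39429 probes 27597 were named by accession through RefSeq, 5184 kept the file's name and 6648 had none. Genes were tested with limma 3.58.1 in R 4.3.3 (lmFit, eBayes) on the 10 arrays. On simulated arrays with 200 of 11591 genes changed at 0 Gy, the fit recovered 7.5% of changes of log2 1, 79.5% of log2 2 and 93.0% of log2 3. The simulated noise was independent between genes and arrays, with no shared effect of array, slide or scan day. These shares are therefore not the power reached on the real arrays. Lists are described by counts and medians, without a set test. Named genes were Parp1 and the tested PARP family, the largest called rises and falls detected on all arrays, calls detected in 1 group only, up to 2 called members of each list, and calls within 5 Mb of Parp1. Other genes are list members given as examples or are said to be chosen after their values were seen. Array measures used exact permutation tests over 252 splits. The labels do not say that replicate numbers pair mice, and the main fit did not pair them. The correlations of same-numbered arrays were 0.707, 0.34, -0.0194, 0.244 and -0.244. Only replicates 1 and 2 matched their own number best, which does not settle the point. Arrays give no read depth, and 5 per group limits the precision. Knockout replicates 4 and 5, the closest pair of the 10 (SD 0.279), still differed alike at 2 probes of a gene (correlation 0.489 over 1377 genes), and were kept as 2. Settings tried cover scaling, background correction, filters, probe choice, blocks, a covariate, single arrays left out and, added after seeing the data, the knockout arrays of each scan day alone, replicates 4 and 5 averaged, and single 6 Gy arrays left out.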

Additional observations from a re-analysis of the deposited data

Results flagged for a closer look

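Single arrays stood apart from the other 4 of their group in 8 of 120 checks, where chance gives about 1 in 20. On knockout replicate 3 they were Parp9 at -2.07 (next array -0.39), V1ra8 at 0.69 (next -0.38), Mdh1b at 2.07 (next 1.14), Adprhl1 at 1.1 (next 0.30) and the mean level of neutrophil genes at 3.39 (next 2.65). On knockout replicate 1 they were Parp3 at -2.04 (next -1.12) and the mean level of genes of NAD synthesis and use at 1.22 (next 0.52). On wild-type replicate 1 the 4 heart muscle genes averaged 0.70 (next -1.23). Knockout replicate 3 also had the lowest 75th percentile of the knockout arrays, 47.4 scanner units, and the highest globin level, 13, and the part of these in its values was not tested.

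For 7 named genes the genotype difference at 6 Gy minus that at 0 Gy passed the threshold of an interaction test in limma over the 20 arrays at both doses. The values were -3.36 for Rgs7, -3.27 for V1ra8, -2.78 for Gpr37l1, -2.69 for Olfr738, -2.66 for Olfr122, -2.47 for Ldb3 and -2.09 for Mdh1b, with adjusted p from 0.0307 to 0.0471. Without knockout 6 Gy replicate 1 Mdh1b no longer passed (-1.96, adjusted p = 0.0505) and Krt80 did (-2.83, adjusted p = 0.0451, against 0.0512 with it). These genes were chosen for their difference at 0 Gy, which enters this test, so the values are not independent of the choice. Parp1 at 0.47 (SE 0.629) and Siglecf at 0.47 (SE 0.825) did not pass.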

How the results depend on the processing

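The 10-array fit called 27 genes, 26 higher and 1 lower. The 3 counts were 101, 91 and 10 in 1 model of all 24 arrays; 63, 57 and 6 with median centring, under which the median over all genes went from -0.08 to -0.26; 118, 112 and 6 with the percentile over detected probes; and 34, 32 and 2 with quantile normalization. They were 8, 8 and 0 over probes detected on all 10 arrays, 8, 7 and 1 with no filter, 58, 53 and 5 with the mean of a gene's probes, 130, 122 and 8 with slide as a random block, 50, 43 and 7 with the hepatocyte covariate, and 1, 1 and 0 with scan day or slide as a fixed block. No gene was called by limma with normexp background (1639 at an unadjusted p under 0.05), from the authors' table (1606), with treat against a log2 difference of 0.5 (600), with the knockout arrays of scan day 1 alone (917) or with knockout replicates 4 and 5 averaged (1892), against 219, 200 and 19 with those of scan day 2 alone. With a replicate block, a pairing that the labels do not state and the correlations above do not settle, the counts were 411, 375 and 36. Leaving out 1 array gave 0 to 351, 0 to 328 and 0 to 23. At 6 Gy 6 genes were called, 1 within scan day 3, 0 with a replicate block (1550 at an unadjusted p under 0.05) and 0 to 6 without 1 array, and 2 to 9 of the 26 lay above 0 without 1 array.

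Signs turned as follows. With scan day as a block Parp9 was 0.09, Parp10 0.09, Zc3hav1 -0.19, Parp14 0.19, Gpr37l1 -0.69, V1ra8 -0.16, Krt80 -0.67, Mdh1b -0.44, Rgs7 -0.46, Ces2c -1.65, Adprhl1 -0.36, Ldb3 -0.63 and Olfr738 -0.19. With slide as a fixed block Tnks2 was 0.03, Parp10 0.11, Parp14 0.45, Parp16 -0.57, Ces2c -1.63 and Ldb3 -0.06. Tiparp was -0.18 with median centring, -0.10 with the percentile over detected probes, -0.01 with quantile normalization, 0.00 with the slide as a random block, -0.05 with the covariate and -0.15 on scan day 2. Parp3 was -0.08 and Parp16 -0.43 on scan day 1, and Parp6 was 0.04 and Parp10 0.05 on scan day 2. Without 1 array Tiparp ran from -0.10 to 0.12, Parp10 from -0.27 to 0.03, Tnks2 from -0.22 to 0.06 and Parp16 from -0.10 to 0.50. List medians also turned: with scan day as a block neutrophil to -0.60, platelet to -0.24, MHC class II to 1.36, circadian to 0.75, hepatocyte to 4.95, resident macrophage to 3.04 and interferon to 0.44, and with slide as a fixed block neutrophil to -0.08, MHC class II to 1.41, basophil and mast cell to 0.77, circadian to 0.19, hepatocyte to 1.67 and monocyte to 0.35. Double-strand break repair was 0.08 with normexp and from the authors' table. The erythroid, B cell, T cell, NK cell and p53 medians kept their sign in all 28 settings, the PARP family median reached 0.00 in 1, and every other list's median turned in at least 1. The cause of these changes was not tested. Signal close to background limits the knockout level of Parp1 and the wild-type levels of most higher calls.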
